A study of Homo sapiens with 4 samples.

Results

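The genes described here are 60 members of the Wnt pathway: the Wnt ligands, their frizzled, LRP, ROR and RYK receptors, the secreted inhibitors, the R-spondins with their LGR receptors, the TCF/LEF factors and the feedback genes of the pathway. They were taken by gene symbol from a list of the pathway, chosen with earlier results of these data known, and all 60 were found among the 58229 genes of the table. Their transcript levels were profiled by RNA-seq in CD31+ cells at day 8 of hematopoietic differentiation from H1, a human embryonic stem cell line in wide use. CD31 (PECAM1) marks endothelial cells, including the hemogenic endothelium from which the first blood cells arise. The Control cells came from H1 without HAND1 overexpression (2 libraries) and the HAND1_OE cells from H1 that overexpressed the transcription factor HAND1 (2 libraries). Both were treated first with activin A and BMP4 to form mesoderm and then with VEGF and bFGF. The promoter that drove HAND1 and the number of clones used are not given in the sources used here, and nothing says whether the libraries of a group came from separate cultures, so the p-values measure only the spread between these libraries.

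Wnt proteins are secreted lipid-modified ligands. In the canonical branch a ligand binds a frizzled receptor together with LRP5 or LRP6, which stabilizes beta-catenin, and beta-catenin with a TCF/LEF factor then switches on targets such as AXIN2. In the noncanonical branches ligands such as WNT5A act through ROR, RYK or frizzled receptors on cell polarity, movement and calcium. In the embryo, canonical signals help to form mesoderm and to start blood formation, and WNT5A and WNT11 are known for roles in cell movement and in heart and mesenchyme development.

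Values are in FPKM, fragment numbers corrected for transcript length and library depth, so the number of fragments behind a value, and with it the counting error, is unknown. The libraries summed to between 536284 and 606609 FPKM, and 13989 to 14542 genes reached 1 FPKM in each. Genes that reached 1 FPKM in 2 or more libraries were tested with limma on log2(FPKM + 1), a scale that understates the changes of low genes, and a gene was called where its adjusted p was under 0.05 over all genes tested. HAND1 stood at 12.1 and 14.3 FPKM in the Control replicates and at 520 and 517 FPKM in the HAND1_OE replicates, as the labels say. Its log2 fold change was 5.20 (SE 0.152, adjusted p = 0.00145, limma). Endothelial markers were high in every library, with CDH5 between 222 and 280 FPKM and KDR between 251 and 272 FPKM.

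Of the 60 members, 37 passed the filter on low values and 23 did not. Among those tested, 7 were called higher in HAND1_OE cells and 3 lower, and 27 were not called. That is 18.9% of the tested members called higher, beside 2.04% of all 14622 genes tested, and 8.11% called lower, beside 2.11% of all genes. The median log2 fold change of the tested members was -0.09, beside -0.08 over all genes, and its sign was not stable, since it ran from -0.19 (without HAND1_OE replicate 2) and -0.17 (without Control replicate 1) to 0.06 (without HAND1_OE replicate 1) and 0.04 (without Control replicate 2). The values of the 2 groups did not overlap for 70.3% of the tested members and for 46.3% of all genes tested. WNT5A, WNT11, ROR1, SFRP1, DKK3, FZD6 and RSPO4 rose, and SFRP5, WNT5B and FZD9 fell. DKK2 passed the filter only through the Control libraries, where it was higher, and so had to differ.

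Sequence upstream of a RefSeq start is shown for the called members with the largest changes, because HAND1 is a basic helix-loop-helix factor, a class that binds E-boxes (CANNTG) together with an E protein. The bases come from RefSeq on GRCh38.p14, taken from the 250 bases before an annotated start and without any base that lies in an exon of GENCODE release 29. WNT5A and WNT5B each have 2 RefSeq starts in this table, and for both genes the sequence before the more upstream of these lies wholly in an exon of that release and is not shown, so the bases given lie inside the gene, before the more downstream start. A stretch of bases just after the start used was found in a transcript of the gene in that release for WNT5A and ROR1. For WNT5B and SFRP5 it was not found. All sequences are written 5′ to 3′ on the strand of the gene, with each CANNTG in capitals.
WNT5A, chr3:55481399-55481648, minus strand: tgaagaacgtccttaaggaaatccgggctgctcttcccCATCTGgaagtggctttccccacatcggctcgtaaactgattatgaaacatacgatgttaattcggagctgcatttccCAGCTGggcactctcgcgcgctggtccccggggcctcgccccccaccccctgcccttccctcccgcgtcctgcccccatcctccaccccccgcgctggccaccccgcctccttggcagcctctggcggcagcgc
WNT5B, chr12:1628981-1629196, plus strand: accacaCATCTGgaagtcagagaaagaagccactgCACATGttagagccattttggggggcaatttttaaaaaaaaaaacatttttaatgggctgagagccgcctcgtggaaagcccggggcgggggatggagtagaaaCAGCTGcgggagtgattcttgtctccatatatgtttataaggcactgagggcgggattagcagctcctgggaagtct
SFRP5, chr10:97772000-97772249, minus strand: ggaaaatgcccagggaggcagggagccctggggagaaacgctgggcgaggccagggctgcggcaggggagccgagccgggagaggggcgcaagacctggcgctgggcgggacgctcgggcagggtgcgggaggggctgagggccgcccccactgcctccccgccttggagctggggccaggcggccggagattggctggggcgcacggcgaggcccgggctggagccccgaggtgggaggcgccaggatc
ROR1, chr1:63773767-63774016, plus strand: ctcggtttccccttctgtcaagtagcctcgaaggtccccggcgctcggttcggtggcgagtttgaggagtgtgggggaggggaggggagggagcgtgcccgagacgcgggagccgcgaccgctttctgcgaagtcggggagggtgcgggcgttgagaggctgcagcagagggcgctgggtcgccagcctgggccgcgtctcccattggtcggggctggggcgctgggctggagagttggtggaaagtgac

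The WNT5A sequence held 2 CANNTG matches and the WNT5B sequence 3, and in each a single match was CATCTG, a form of CANNTG that lies inside the set of matches shown. No CANNTG was found in the sequences of SFRP5 and ROR1. Of the 10 called members, 6 off chromosome 8 had RefSeq windows, 8 windows in all, and 4 of these 8 windows held CANNTG, beside 61.8% of 35116 windows of the same length over all genes. CATCTG or its reverse complement was in 2 of the 8, beside 12.2% of all windows. The TCF/LEF motif, searched on both strands as CTTTGAA or CTTTGAT, was in 0 of the 8 windows, beside 5.94% of all windows. A match describes these letters only and is not a binding site, and windows without a match say nothing about the factor.

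**Figure D1:**
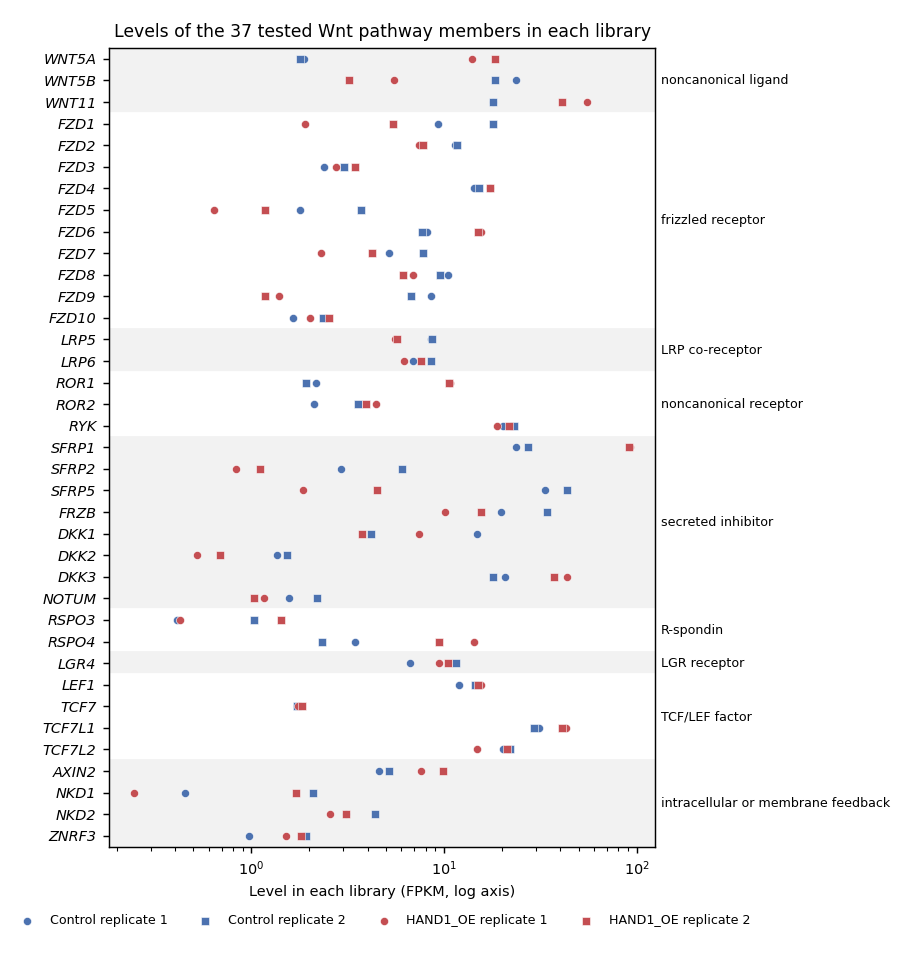
Level of each of the 37 tested members in each library, in FPKM on a log axis, grouped by role, with Control libraries in blue, HAND1_OE libraries in red and the replicate number given by the shape. WNT5A, ROR1, SFRP1 and RSPO4 lie to the right in both HAND1_OE libraries, and SFRP5, WNT5B and FZD9 lie to the left.

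The ligands that act mainly through noncanonical branches changed in both directions. WNT5A was at 1.88 and 1.78 FPKM in the Control replicates and at 13.9 and 18.3 FPKM in the HAND1_OE replicates. The groups lay far apart, with a mean 8.82-fold higher in HAND1_OE cells and a log2 fold change of 2.59 (SE 0.196, adjusted p = 0.00700, limma). The gene lies on chromosome 3, at 55465715 to 55489945 on GRCh38. An antisense gene that overlaps it, WNT5A-AS1, had 0 and 0.829 FPKM in the Control libraries and 3.96 and 5.93 FPKM in the HAND1_OE libraries. Whether reads were counted by strand is not given in the sources used here, so the reads of WNT5A and WNT5A-AS1 cannot be told apart. Nor can more RNA per cell be told apart from more cells that express a gene, here and for every gene below, since the samples are bulk.

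WNT11, a ligand of convergent extension and heart development, was the other ligand that rose. It had 17.8 and 18 FPKM in the Control libraries and 54.9 and 40.7 FPKM in the HAND1_OE libraries, which did not overlap. Its log2 fold change was 1.35 (SE 0.187, adjusted p = 0.0248, limma). This call was lost when Control replicate 1 or Control replicate 2 was left out, with adjusted p-values of 0.0753 and 0.0782 in limma. WNT11 lies on chromosome 11, at 76186325 to 76210736, and overlaps the antisense gene AP000785.1. That gene had 0.700 and 0.275 FPKM in the Control libraries and 1.17 and 0.825 FPKM in the HAND1_OE libraries, and the strands cannot be told apart.

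WNT5B, the close paralog of WNT5A, moved the other way. It had 23.6 and 18.3 FPKM in the Control libraries and 5.48 and 3.22 FPKM in the HAND1_OE libraries. The log2 fold change was -2.06 (SE 0.260, adjusted p = 0.0194, limma), and without Control replicate 1 it was -1.88 with an adjusted p of 0.0526. WNT5B lies on chromosome 12, at 1529891 to 1647243, and overlaps FBXL14 on the opposite strand, which had 6.45 and 6.90 FPKM in the Control libraries and 5.58 and 5.48 FPKM in the HAND1_OE libraries. In the Control libraries WNT5A was at 0.0795 and 0.0972 of the level of WNT5B, and in the HAND1_OE libraries at 2.53 and 5.68 times its level. WNT5B thus stood far above WNT5A in the Control cells and below it in the HAND1_OE cells.

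No other ligand passed the filter on low values. WNT4, which can act in both branches, had 0.153 and 0.0649 FPKM in the Control libraries and 0.0322 and 0.0367 FPKM in the HAND1_OE libraries and was not tested. Among the 14 canonical ligands WNT2B had the highest value, with 0.936 and 1.31 FPKM in the Control libraries and 0.723 and 0.751 FPKM in the HAND1_OE libraries. WNT9A, which was at 0.709 and 0.527 FPKM in the Control libraries, had 0.0726 and 0.154 FPKM in the HAND1_OE libraries, and WNT3, a mesoderm-inducing ligand, had 0.675 and 0.617 FPKM in the Control libraries and 0.286 and 0.242 FPKM in the HAND1_OE libraries. These genes lay apart between the groups but were too low to be tested. WNT9B and WNT16 stayed between 0.242 and 0.912 FPKM in every library. WNT1, WNT2, WNT3A, WNT6, WNT7A, WNT7B, WNT8A, WNT10A and WNT10B were all at or below 0.215 FPKM, and WNT10A was listed at 0 in every library.

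Summed over the ligands, the level was 47.2 and 41.5 FPKM in the Control libraries and 76.6 and 64.9 FPKM in the HAND1_OE libraries. WNT5B made up 50.0% and 44% of this sum in the Control libraries and 7.16% and 4.96% in the HAND1_OE libraries. WNT11 made up 37.8% and 43.4% in the Control libraries and 71.8% and 62.7% in the HAND1_OE libraries, and WNT5A went from 3.98% and 4.28% to 18.1% and 28.2%. The ligand RNA of the Control cells was thus mostly WNT5B and WNT11, and that of the HAND1_OE cells mostly WNT11 and WNT5A. An exact permutation test of such a share, 2 libraries against 2, cannot go below p = 0.333, so the shares are given as a description.

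**Figure D2:**
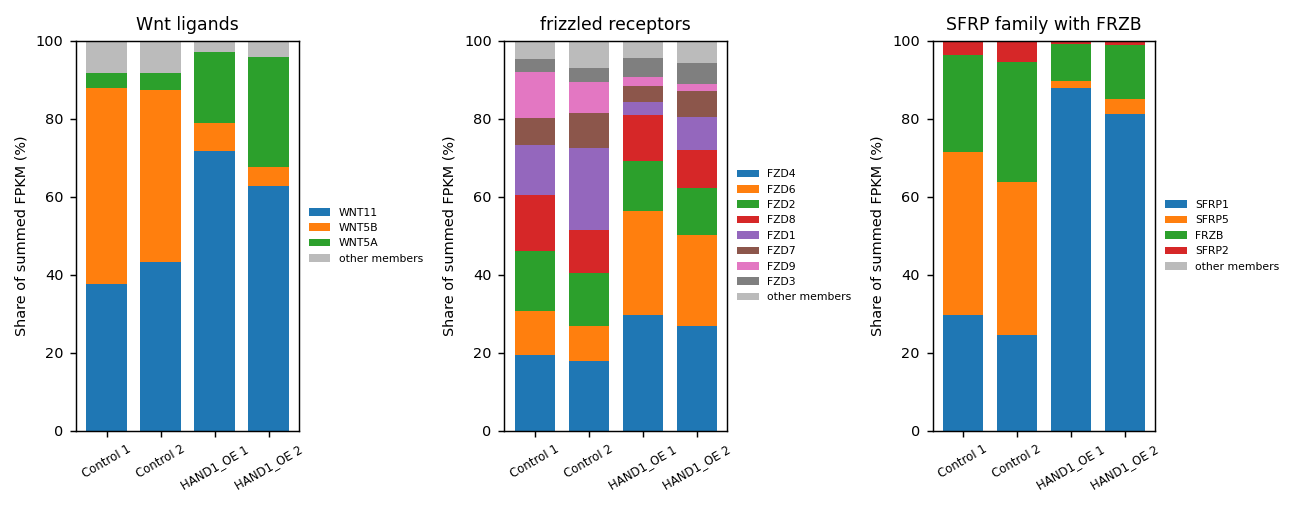
Share of the summed FPKM (%) held by each member of the Wnt ligands, the frizzled receptors and the SFRP family with FRZB in each library, as stacked bars from 0 to 100. WNT5B and SFRP5 hold much of their families in the Control libraries, and WNT11, WNT5A, FZD6 and SFRP1 take larger shares in the HAND1_OE libraries.

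Among the receptors of noncanonical signals, ROR1, a receptor tyrosine kinase-like protein that binds WNT5A, rose. It was at 2.16 and 1.91 FPKM in the Control replicates and at 10.7 and 10.5 FPKM in the HAND1_OE replicates. Its log2 fold change was 1.94 (SE 0.168, adjusted p = 0.00780, limma), and the mean was 5.21-fold higher. ROR1 lies on chromosome 1, at 63774022 to 64181498, and its antisense gene ROR1-AS1 did not exceed 0.110 FPKM in any library.

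The related receptor ROR2 had 2.10 and 3.55 FPKM in the Control libraries and 4.40 and 3.93 FPKM in the HAND1_OE libraries, a log2 fold change of 0.46 (SE 0.242, adjusted p = 0.427, limma). RYK, an atypical kinase receptor for Wnt ligands, had 20.3 and 22.9 FPKM in the Control libraries and 18.8 and 21.7 FPKM in the HAND1_OE libraries, and its groups overlapped, with a log2 fold change of -0.09 (SE 0.159, adjusted p = 0.849, limma). The 95% interval of the RYK change ran from -0.49 to 0.31. RYK was the most abundant of the ROR and RYK receptors in every library, and the level of ROR1 relative to ROR2 was 1.03 and 0.538 in the Control libraries and 2.43 and 2.68 in the HAND1_OE libraries.

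The noncanonical ligands and receptors were also counted together (WNT4, WNT5A, WNT5B, WNT11, ROR1, ROR2 and RYK). Of these 7, 6 were tested, 3 rose, 1 fell and 2 were not called. The shares called were 50% higher and 16.7% lower, beside 2.04% and 2.11% of all genes. The median log2 fold change of these 6 was 0.91, beside -0.08 over all genes.

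All 10 frizzled receptors passed the filter, and 1 rose, 1 fell and 8 were not called. That is 10% in each direction, beside 2.04% of all genes called higher and 2.11% called lower. FZD6, a receptor linked to planar cell polarity, had 8.18 and 7.67 FPKM in the Control libraries and 15.5 and 15 FPKM in the HAND1_OE libraries. Its log2 fold change was 0.86 (SE 0.150, adjusted p = 0.0425, limma), close to the threshold. The call was lost without the mean-variance trend (adjusted p = 0.0502, limma) and with any 1 library left out, where adjusted p-values ran from 0.10 to 0.205. FZD6 lies on chromosome 8, and its antisense neighbour BAALC-AS1 had 2.54 and 2.68 FPKM in the Control libraries and 4.60 and 4.77 FPKM in the HAND1_OE libraries, so that here too the strands cannot be told apart.

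FZD9, on chromosome 7 at 73433783 to 73436120, fell. It had 8.57 and 6.72 FPKM in the Control libraries and 1.39 and 1.17 FPKM in the HAND1_OE libraries, a log2 fold change of -1.92 (SE 0.200, adjusted p = 0.0115, limma). FZD6 was at 0.954 and 1.14 times the level of FZD9 in the Control replicates and at 11.1 and 12.8 times its level in the HAND1_OE replicates. The pair of receptors thus stood at about the same level in the Control cells and far apart in the HAND1_OE cells.

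FZD4, the receptor for Norrin in vessel growth, had the highest mean of the family. It was at 14.2 and 15.2 FPKM in the Control replicates and at 17.2 FPKM in both HAND1_OE replicates, with a log2 fold change of 0.21 (SE 0.145, adjusted p = 0.552, limma). FZD1 ranged from 9.33 to 18 FPKM in the Control libraries and from 1.90 to 5.40 FPKM in the HAND1_OE libraries, and with this spread its log2 fold change of -1.70 was not called (adjusted p = 0.129, limma). FZD2, FZD5, FZD7 and FZD8 were also lower in both HAND1_OE libraries than in either Control library, with log2 fold changes between -0.94 and -0.54, none of them called. FZD3 and FZD10 had groups that overlapped, with log2 fold changes of 0.15 and 0.13. The frizzled receptors summed to 73.1 and 85.5 FPKM in the Control libraries and to 58.0 and 64.0 FPKM in the HAND1_OE libraries. FZD4 and FZD6 together took the highest places in both HAND1_OE libraries, with shares of 29.6% and 26.9% for FZD4 and 26.7% and 23.4% for FZD6. In the Control cells FZD4 (14.7 ± 0.735 FPKM, SD, n = 2) and FZD1 (13.6 ± 6.11 FPKM, SD, n = 2) did not differ beyond their spread.

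The LRP co-receptors of canonical signals were not called. LRP5 had 8.52 and 8.63 FPKM in the Control libraries and 5.56 and 5.66 FPKM in the HAND1_OE libraries. These groups did not overlap, and the log2 fold change was -0.53 (SE 0.156, adjusted p = 0.157, limma). LRP6 had 6.92 and 8.54 FPKM in the Control libraries and 6.20 and 7.57 FPKM in the HAND1_OE libraries, which overlapped, with a log2 fold change of -0.15 (SE 0.190, adjusted p = 0.786, limma).

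**Figure D3:**
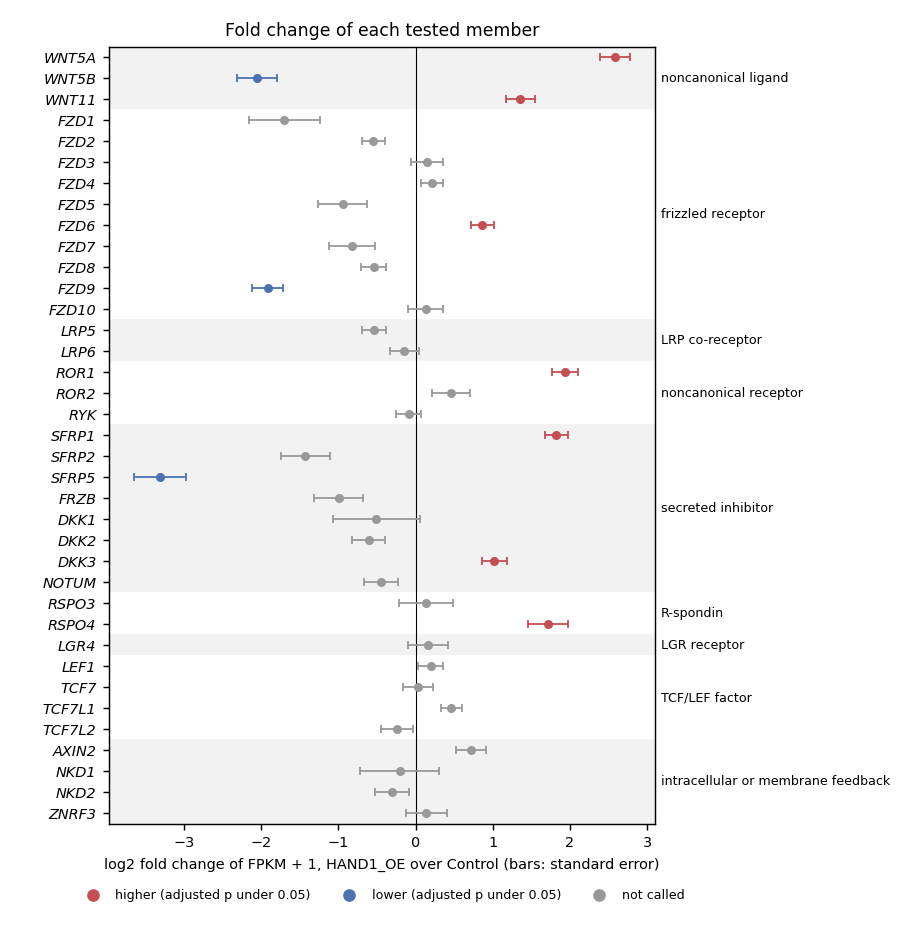
The log2 fold change of FPKM + 1, HAND1_OE over Control, of each tested member, with its standard error as bars, grouped by role. Called members are red (higher) or blue (lower), and the others grey. WNT5A (2.59) lies farthest to the right and SFRP5 (-3.30) farthest to the left, and the TCF/LEF factors and the feedback genes are all grey.

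Most of the secreted inhibitors bind Wnt ligands or their receptors outside the cell. Of 11 in the list, including the carboxylesterase NOTUM, 8 were tested, of which 2 rose, 1 fell and 5 were not called. Called higher were 25% and lower 12.5%, beside 2.04% and 2.11% of all genes. The median log2 fold change of the 8 was -0.56. SFRP5, a secreted frizzled-related protein that binds Wnt ligands, had the largest change of the tested members. It was at 33.2 and 43.6 FPKM in the Control replicates and at 1.84 and 4.49 FPKM in the HAND1_OE replicates, a mean 12.1-fold lower in HAND1_OE cells. Its log2 fold change was -3.30 (SE 0.339, adjusted p = 0.0108, limma). The gene lies on chromosome 10, at 97766751 to 97771952.

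SFRP1, of the same family, rose. It had 23.5 and 27.2 FPKM in the Control libraries and 92.4 and 91.2 FPKM in the HAND1_OE libraries, with a log2 fold change of 1.82 (SE 0.148, adjusted p = 0.00730, limma). The ratio of SFRP1 to SFRP5 was 0.708 and 0.623 in the Control libraries and 50.2 and 20.3 in the HAND1_OE libraries. Over the SFRP family with FRZB the summed level was 79.2 and 111 FPKM in the Control libraries and 105 and 112 FPKM in the HAND1_OE libraries, ranges that overlap. SFRP1 made up 29.6% and 24.5% of this sum in the Control libraries and 87.9% and 81.2% in the HAND1_OE libraries, while SFRP5 went from 41.8% and 39.3% to 1.75% and 3.99%. The sums of the family thus overlapped, while SFRP5 led in the Control libraries and SFRP1 in the HAND1_OE libraries.

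FRZB, a frizzled-related protein first known from cartilage, had 19.7 and 34.1 FPKM in the Control libraries and 10.04 and 15.6 FPKM in the HAND1_OE libraries. The groups did not overlap, but with this spread the log2 fold change of -1.0 was not called (SE 0.320, adjusted p = 0.191, limma). SFRP2 had 2.92 and 6.07 FPKM in the Control libraries and 0.829 and 1.10 FPKM in the HAND1_OE libraries, a log2 fold change of -1.42 that was not called (adjusted p = 0.0818, limma). SFRP4 did not exceed 0.0172 FPKM.

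In the Dickkopf family, whose DKK1, DKK2 and DKK4 bind LRP5 and LRP6, the divergent member DKK3 rose. It was at 20.6 and 17.9 FPKM in the Control replicates and at 43.3 and 37 FPKM in the HAND1_OE replicates, with a log2 fold change of 1.02 (SE 0.163, adjusted p = 0.0349, limma). The call was lost without Control replicate 1 (adjusted p = 0.0920), without Control replicate 2 (adjusted p = 0.158) and without HAND1_OE replicate 1 (adjusted p = 0.0857), each from limma. DKK3 lies on chromosome 11, at 11963106 to 12009769.

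DKK1 differed more within a group than between the groups. It had 14.8 and 4.16 FPKM in the Control libraries and 7.43 and 3.75 FPKM in the HAND1_OE libraries, and its log2 fold change of -0.51 had a 95% interval from -1.91 to 0.89 (SE 0.563, adjusted p = 0.742, limma). DKK2 had 1.36 and 1.53 FPKM in the Control libraries and 0.524 and 0.689 FPKM in the HAND1_OE libraries and was not called (log2 fold change -0.61, adjusted p = 0.225, limma). NOTUM, which removes the lipid from Wnt proteins, had 1.57 and 2.18 FPKM in the Control libraries and 1.17 and 1.03 FPKM in the HAND1_OE libraries (log2 fold change -0.44, adjusted p = 0.385, limma). DKK4 and WIF1 did not exceed 0.0745 FPKM in any library.

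R-spondins are secreted proteins that raise the number of Wnt receptors at the surface by acting through LGR receptors on RNF43 and ZNRF3. RSPO4 rose from 3.45 and 2.32 FPKM in the Control libraries to 14.2 and 9.43 FPKM in the HAND1_OE libraries, with a log2 fold change of 1.71 (SE 0.261, adjusted p = 0.0312, limma). Without Control replicate 2 its log2 fold change was 1.5 with an adjusted p of 0.0864. RSPO4 lies on chromosome 20, at 958452 to 1002264. RSPO3 had 0.411 and 1.03 FPKM in the Control libraries and 0.427 and 1.43 FPKM in the HAND1_OE libraries, so its groups overlapped. RSPO1 and RSPO2 were not tested and did not exceed 0.614 FPKM. The R-spondins summed to 3.88 and 3.97 FPKM in the Control libraries and to 14.8 and 11.3 FPKM in the HAND1_OE libraries, most of it RSPO4. Of their receptors, LGR4 had 6.68 and 11.5 FPKM in the Control libraries and 9.45 and 10.4 FPKM in the HAND1_OE libraries, with a log2 fold change of 0.16 (adjusted p = 0.838, limma), while LGR5 and LGR6 stayed below 1 FPKM and were not tested.

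Of the members, those that read out canonical signalling inside the cell were not called. AXIN2, a scaffold of the beta-catenin destruction complex and the most used target of the canonical branch, had 4.57 and 5.19 FPKM in the Control libraries and 7.57 and 9.82 FPKM in the HAND1_OE libraries. These groups did not overlap, and the log2 fold change was 0.71 (SE 0.192, adjusted p = 0.130, limma), with a 95% interval from 0.23 to 1.19. In the alternative with a block on the replicate number, whose meaning is not given, AXIN2 was called (adjusted p = 0.0496, limma). LEF1, a TCF/LEF factor and itself a target, had 12 and 14.5 FPKM in the Control libraries and 15.5 and 15 FPKM in the HAND1_OE libraries, with a log2 fold change of 0.20 (SE 0.163, adjusted p = 0.635, limma). TCF7 had 1.72 and 1.73 FPKM in the Control libraries and 1.74 and 1.83 FPKM in the HAND1_OE libraries, with a log2 fold change of 0.03 (SE 0.190, adjusted p = 0.962, limma). The interval of the TCF7 change ran from -0.44 to 0.51.

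NKD1, an intracellular inhibitor that binds Dishevelled, split by replicate number and not by group. It was at 0.451 and 2.09 FPKM in the Control replicates and at 0.246 and 1.71 FPKM in the HAND1_OE replicates, with a log2 fold change of -0.21 (SE 0.509, adjusted p = 0.899, limma). RNF43, a ubiquitin ligase that removes frizzled receptors, was too low to be tested, at 0.154 and 0.502 FPKM in the Control replicates and 0.237 and 1.62 FPKM in the HAND1_OE libraries. Its paralog ZNRF3 had 0.976 and 1.93 FPKM in the Control libraries and 1.5 and 1.81 FPKM in the HAND1_OE libraries, which overlapped, and its log2 fold change was 0.14 (SE 0.262, adjusted p = 0.858, limma). NKD2 had a log2 fold change of -0.30 (adjusted p = 0.585, limma).

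TCF7L1, which mostly represses Wnt targets, was the most abundant TCF/LEF factor, at 31.1 and 29.1 FPKM in the Control replicates and 43.0 and 40.8 FPKM in the HAND1_OE libraries. Its groups did not overlap, but its log2 fold change of 0.46 was not called (adjusted p = 0.169, limma). TCF7L2 was at 20.1 and 22.0 FPKM in the Control replicates and at 14.8 and 21.1 FPKM in the HAND1_OE replicates, with a log2 fold change of -0.24 (adjusted p = 0.649, limma). Over the canonical targets AXIN2, LEF1, TCF7, NKD1, NKD2, RNF43, ZNRF3, NOTUM and LGR5, 7 of 9 were tested and 0 were called in limma. Of these 7, 1 had an unadjusted p under 0.05, beside 2551 of all 14622 genes. The median log2 fold change of the 7 was 0.03, beside 0.91 over the 6 tested noncanonical ligands and receptors. With 1 library left out the median of the canonical targets was -0.14 (without Control replicate 1), 0.32 (without Control replicate 2), 0.17 (without HAND1_OE replicate 1) or 0.01 (without HAND1_OE replicate 2), and that of the noncanonical genes ran from 0.76 to 1.05. With WNT4 included in a test of all genes above 0, the noncanonical median was 0.46. The difference between these medians was not tested, since genes of a list are not replicates.

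A further 71 genes of the pathway, which are not members, were looked up from a list. Of these 61 were tested, 5 rose and 1 fell, and their median log2 fold change was -0.0035. Called higher were 8.2%, beside 2.04% of all genes, and lower 1.64%, beside 2.11% of all genes. None of the 23 tested genes of the beta-catenin core (the destruction complex, Dishevelled and cofactors) was called in limma. An unadjusted p under 0.05 was found for 2 of them, beside 2551 of all 14622 genes. CTNNB1, which encodes beta-catenin, had 158 and 166 FPKM in the Control libraries and 144 and 167 FPKM in the HAND1_OE libraries. Among 11 tested genes of planar cell polarity 2 rose (18.2%) and 1 fell (9.09%), beside 2.04% and 2.11% of all genes. DAAM1, a formin that acts downstream of Dishevelled, had 26.3 and 27.9 FPKM in the Control libraries and 55.6 and 77.2 FPKM in the HAND1_OE libraries (log2 fold change 1.25, adjusted p = 0.0335, limma). PRICKLE1, a cytoplasmic polarity protein, had 11.0 and 12 FPKM in the Control libraries and 4.96 and 5.92 FPKM in the HAND1_OE libraries (log2 fold change -0.96, adjusted p = 0.0441, limma). Its paralog PRICKLE2 had 0.727 and 0.777 FPKM in the Control libraries and 3.23 and 3.64 FPKM in the HAND1_OE libraries (log2 fold change 1.34, adjusted p = 0.0277, limma), and passed the filter only through the HAND1_OE libraries.

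SULF2, an extracellular sulfatase that edits heparan sulfate and so changes how Wnt proteins and growth factors are held at the surface, was the only one called of 13 tested extracellular modulators (7.69% called higher, beside 2.04% of all genes). It was at 20.9 and 31.4 FPKM in the Control replicates and at 184 and 211 FPKM in the HAND1_OE replicates, with a log2 fold change of 2.90 (adjusted p = 0.00703, limma). Of 12 tested transcriptional targets outside the member list, CCND1 (log2 fold change 0.85, adjusted p = 0.0491, limma) and VEGFA (log2 fold change 1.36, adjusted p = 0.0246, limma) rose, and both are also driven by other signals. That is 16.7% called higher, beside 2.04% of all genes. The remaining 10 were not called, but 8 of the 12 had an unadjusted p under 0.05 in limma, beside 2551 of all 14622 genes. The groups did not overlap for 75% of the 12, beside 46.3% of all genes. The log2 fold change was above 0 for 6 of the 12 and below 0 for 6. Among those not called, CD44 had 38.8 and 61.2 FPKM in the Control libraries and 75.1 and 117 FPKM in the HAND1_OE libraries. Its log2 fold change was 0.93 (adjusted p = 0.195, limma). MYC had 27.1 and 36.2 FPKM in the Control libraries and 22.4 and 19.2 FPKM in the HAND1_OE libraries. The log2 fold change of MYC was -0.58 (adjusted p = 0.213, limma). SP5 had 5.63 and 9.23 FPKM in the Control libraries and 3.25 and 4.203 FPKM in the HAND1_OE libraries (log2 fold change -0.81, adjusted p = 0.195, limma).

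Markers of some other cell types differed between the groups. Of 9 hematopoietic markers 8 were tested and 7 were called lower in HAND1_OE cells, beside 2.11% of all genes tested. TAL1, the tested marker that was not called, had 35.8 and 47.8 FPKM in the Control libraries and 12 and 28.4 FPKM in the HAND1_OE libraries. The list summed to 417 and 638 FPKM in the Control libraries and to 42.3 and 50.8 FPKM in the HAND1_OE libraries. PTPRC, which defines later blood cells, did not exceed 0.0227 FPKM in any library. Of 8 stromal and mesenchymal markers 7 were tested and 2 were called higher, LUM and PDGFRB, beside 2.04% of all genes tested. The list summed to 808 and 731 FPKM in the Control libraries and to 1107 and 1123 FPKM in the HAND1_OE libraries, most of the difference being THY1 (378 and 383 FPKM against 553 and 628 FPKM) and COL3A1 (160 and 97.9 FPKM against 325 and 241 FPKM), neither of them called. COL1A2 (154 and 141 FPKM against 68.6 and 101 FPKM) and COL1A1 (89.9 and 79.7 FPKM against 70.0 and 74.0 FPKM) had lower values in both HAND1_OE libraries and were not called, so the list did not move as a whole. The 8 endothelial markers summed to between 1239 and 1404 FPKM, and 0 of them were called in limma. Only EMCN among them had an unadjusted p under 0.05, with 22.8 and 34.2 FPKM in the Control libraries and 58.5 and 88.3 FPKM in the HAND1_OE libraries (adjusted p = 0.0688, limma). Smooth muscle and pericyte markers summed to between 267 and 301 FPKM, and cardiac muscle markers to between 37.7 and 65.2 FPKM. Within these sums CSPG4 (1.61 and 8.03 FPKM against 21.7 and 26.6 FPKM), TNNT2 (1.39 and 1.64 FPKM against 3.50 and 6.37 FPKM) and ACTC1 (19.2 and 9.32 FPKM against 27.4 and 28.6 FPKM) were higher in HAND1_OE cells. NKX2-5 was lower (40.9 and 22.9 FPKM against 19.6 and 14.7 FPKM). Each of these had an unadjusted p under 0.05 in limma, and the other tested members of the lists did not. Epithelial markers summed to 230 and 242 FPKM in the Control libraries and to 266 and 327 FPKM in the HAND1_OE libraries. Pluripotency markers summed to 43.1 and 48.7 FPKM in the Control libraries and to 20.3 and 31.4 FPKM in the HAND1_OE libraries, with LIN28A at 38.3 and 44.3 FPKM against 19.0 and 27.6 FPKM. The epithelial and the pluripotency sums did not overlap between the groups, but no member of these 4 lists was called. NANOG and SOX2 were below 1 FPKM in every library. The part of any of these markers in the changes of the Wnt genes was not tested.

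**Figure D4:**
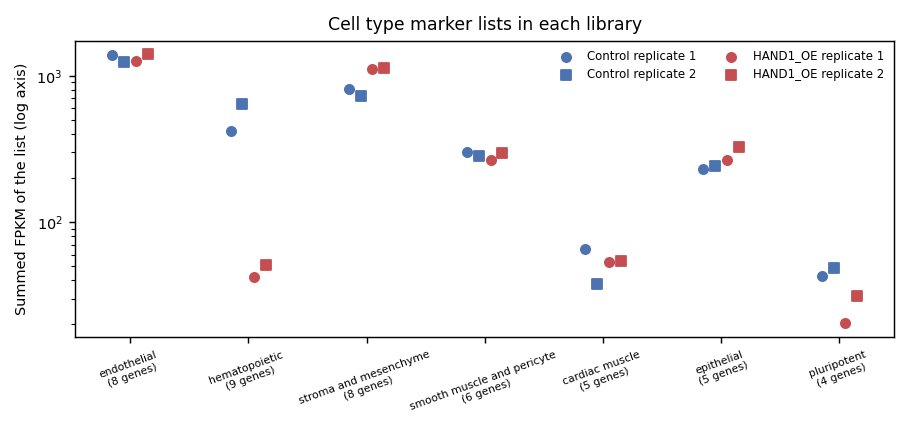
Summed FPKM of each list of cell type markers in each library, on a log axis, with Control libraries in blue and HAND1_OE libraries in red. The endothelial list overlaps between the groups (1239 to 1404 FPKM), the hematopoietic list is lower in both HAND1_OE libraries (42.3 and 50.8 FPKM) and the sum of the stromal list, carried mainly by THY1 and COL3A1, is higher (1107 and 1123 FPKM).

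The calls of WNT5A, ROR1, SFRP1, SFRP5 and FZD9 held with each library left out in turn. The log2 fold change of WNT5A then ran from 2.40 to 2.77, that of ROR1 from 1.88 to 2.00, that of SFRP1 from 1.72 to 1.92, that of SFRP5 from -3.78 to -2.83 and that of FZD9 from -2.07 to -1.76, and all stayed below an adjusted p of 0.05 in limma. The calls of WNT11, WNT5B, DKK3, FZD6 and RSPO4 were each lost with at least 1 library left out. Without Control replicate 1 and without Control replicate 2, 4 and 3 members were called higher in place of 7.

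**Figure D5:**
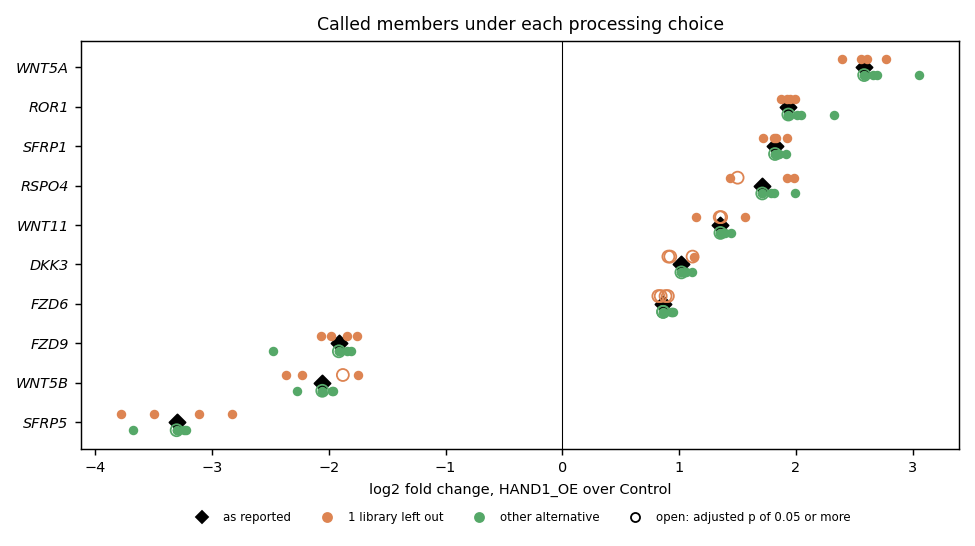
The log2 fold change of each called member as reported (diamond), with 1 library left out (orange) and under the other processing alternatives (green). Rings stand for an adjusted p of 0.05 or more, and the green ring of each gene is that of a test over all genes above 0, in which no gene was called, and for FZD6 also that without the trend. No member changes side of 0.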

How the data were processed

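RNA of the 4 libraries was made from total RNA with a TruSeq kit. The authors deposited 1 table of expression values, taken here as FPKM (fragments scaled to transcript length and library depth). The table itself names no unit; FPKM is what the study plots, and the values are not whole and their totals differ. The submitters' processing notes name BWA, Bowtie, RSEM and hg19, with no versions or roles, but coordinates in the table match GRCh38: of 55605 genes found in GENCODE release 29 by versioned ID, 55583 had the same position. Starts are given here counted from 1. Of 58365 rows, 45 for Y copies of pseudoautosomal genes and 91 further rows of repeated gene IDs were left out, and where a symbol had several rows the one with the highest mean was used.

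Groups were taken from the sample titles. Genes that reached 1 FPKM in 2 or more libraries were compared on log2(FPKM + 1) in limma 3.58.1 (R 4.3.3), using its mean-variance trend, and Benjamini-Hochberg adjustment ran over the 14622 genes tested. This two-sided test gave every adjusted p. An exact permutation test of 2 libraries against 2 cannot go below p = 0.333. The code was tested on simulated data. Full values are given for every called member and for a list of ligands, receptors, inhibitors and canonical targets; the other members get values or ranges. From the other genes of the pathway the called ones are named; CTNNB1, MYC, SP5 and the marker genes named with values were picked with their values in view. The members and lists were chosen with earlier results of these data known. The alternatives tried were: leaving out each library, blocking on the replicate number, no trend, median-ratio scaling, quantile normalization, 1 FPKM required in every library, no filter on low values, 0.1 as pseudocount, and an added fold change of at least 2.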

Additional observations from a re-analysis of the deposited data

How the results depend on the processing

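All 10 called members were also called with a pseudocount of 0.1, with at least 1 FPKM in every library, and with quantile normalization or median-ratio scaling, and none changed direction under any alternative. Quantile normalization and median-ratio scaling moved the median of all genes from -0.08 to -0.0075 and 0.0022. In a test of all genes above 0 in any library, limma called 0 genes higher and 0 lower, and so 0 members in either direction, while 3810 genes had an unadjusted p under 0.05; the log2 fold change of HAND1 was 5.20 with an adjusted p of 0.153, and adjusted p-values of the called members ran from 0.153 to 0.214. The cause was not tested. With an added fold change of at least 2, FZD6 was no longer counted, which left 6 members higher and 3 lower.

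With 1 library left out, 134 to 266 genes were called higher and 137 to 309 lower, and 3 to 6 members higher and 3 to 4 lower; the lone library of a group was taken to vary like the other group. The lowest counts came without Control replicate 1 (141 genes higher, 144 lower, 4 members higher) and without Control replicate 2 (134, 137 and 3). SFRP2 was called without Control replicate 1 and FZD1 without HAND1_OE replicate 2. Members that were not called and changed sign were FZD10 (log2 fold change -0.045 to 0.30), RYK (-0.19 to 0.0067), DKK1 (-1.32 to 0.29), RSPO3 (-0.25 to 0.52), LGR4 (-0.19 to 0.51), TCF7L2 (-0.48 to 0.0015), NKD1 (-0.77 to 0.35) and ZNRF3 (-0.14 to 0.42).

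The labels say nothing of what a shared replicate number means, and there are 2 pairs. Deviations of same-numbered libraries correlated across genes with r = 0.383, where genes are not independent replicates. With the replicate block, limma called 597 genes higher and 712 lower, and 9 members higher and 7 lower; AXIN2, FRZB, FZD1, FZD7, SFRP2 and TCF7L1 were added, with an adjusted p of 0.0496 for AXIN2, the main canonical target.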
